A study of Mus musculus with 16 samples.

Results

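The platelet-derived growth factor (PDGF) system was described in mouse aorta through its 6 genes, the ligand genes Pdgfa, Pdgfb, Pdgfc and Pdgfd and the receptor genes Pdgfra and Pdgfrb. The genes were taken by name, by matching the gene identifiers of the count table to GENCODE symbols. All 6 were found among the 52636 genes of the table, and all 6 were among the 17125 genes with enough reads to be tested. Total RNA of the whole descending thoracic aorta was sequenced in 4 groups of 4 libraries, which crossed strain with treatment. The groups were C57BL/6J mice with AngII-induced hypertension, C57BL/6J controls, 129S6/SvEvTac mice with AngII-induced hypertension and 129S6/SvEvTac controls. AngII is angiotensin II, a peptide hormone that constricts arteries and raises blood pressure, and both strains are inbred. The labels do not give the dose or duration of AngII, what the controls received, the animals' age, or whether each library came from a separate animal, so that p-values measure the spread between these libraries, which may in part be technical.

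PDGF chains are secreted as dimers that bring receptor tyrosine kinases together at the surface of mesenchymal cells. PDGF-A and PDGF-B are cut into their active form inside the cell, whereas PDGF-C and PDGF-D are released latent and are activated outside it by proteases such as tissue-type and urokinase-type plasminogen activator. PDGF receptor alpha binds the A, B and C chains, and PDGF receptor beta binds the B and D chains. In arteries, PDGF-B from the endothelium recruits mural cells, receptor beta is carried by smooth muscle cells, pericytes and fibroblasts, and receptor alpha marks fibroblasts, including those of the adventitia.

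Library totals ran between 42116120 and 61381134 counts in 15 libraries, and replicate 5 of the 129S6/SvEvTac AngII group held 121573945. Levels are given as CPM, the count divided by the library's total after scaling by the trimmed mean of M values (TMM). A gene is said to have risen or fallen, or to be called, where its adjusted p was below 0.05 in edgeR's quasi-likelihood test with Benjamini-Hochberg adjustment over all 17125 genes. Marker genes of cell types were summed in each library. The summed level of 7 smooth muscle markers, among them Acta2 and Myh11, was 12542 to 29632 CPM in C57BL/6J AngII aortas and 38960 to 42196 CPM in C57BL/6J control aortas. It was 36387 to 45813 CPM in 129S6/SvEvTac AngII aortas and 38165 to 41212 CPM in 129S6/SvEvTac controls. Thus the C57BL/6J AngII libraries all lay below the other 12 in smooth muscle markers. The smooth muscle score used below as a covariate, the mean log2 CPM of these markers, is therefore largely tied to that group. A call lost with this score can reflect a less precise estimate and does not show a part of smooth muscle content. Adipocyte markers also differed, with a sum over 7 genes of 172 to 3761 CPM in C57BL/6J AngII aortas, highest in replicate 1, and of 97.9 to 324 CPM in C57BL/6J controls. In 129S6/SvEvTac the sum was 312 to 1376 CPM with AngII, highest in replicate 5, and 140 to 659 CPM in controls. Skeletal and cardiac muscle markers summed to 339 CPM in 129S6/SvEvTac AngII replicate 5, where the median of its group was 22.3 CPM. Replicate 1 of C57BL/6J AngII, with the most adipocyte marker RNA, and replicate 5 of 129S6/SvEvTac AngII, the deepest library, stood apart in this way. Results were also computed without both. Replicate 5 of C57BL/6J AngII, kept in those fits, had an adipocyte marker sum of 2013 CPM, above that of 129S6/SvEvTac AngII replicate 5. Muscle markers also summed to 183 CPM in 129S6/SvEvTac control replicate 3 and to 130 CPM in C57BL/6J AngII replicate 1.

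With AngII, 3 of the 6 PDGF genes changed in each strain, and Pdgfc rose in both. In C57BL/6J aortas, Pdgfc rose 2.25-fold, Pdgfra rose 1.37-fold and Pdgfd was 1.61-fold lower, so that 3 of 6 members were called, 2 higher and 1 lower. Over all genes 38.9% were called in that comparison, 21.8% higher and 17.1% lower, so the share of members was near the background. In 129S6/SvEvTac aortas Pdgfa, Pdgfb and Pdgfc rose by 1.42-fold to 1.88-fold and no member fell; 3 of 6 were called, against 12.2% of all genes, of which 7.71% were higher and 4.47% lower. The AngII effect itself differed between the strains for 3 of 6 members, Pdgfb, Pdgfc and Pdgfra, against 9.96% of all genes, 5.34% with the larger value in C57BL/6J and 4.62% with the larger value in 129S6/SvEvTac. The median log2 fold change of the members was 0.20 in C57BL/6J, where that of all genes was 0.0092, and 0.30 in 129S6/SvEvTac, where that of all genes was 0.0027. Without the pair of libraries that stood apart, 3 members were called in each strain, and 2 in the difference between strains.

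**Figure D1:**
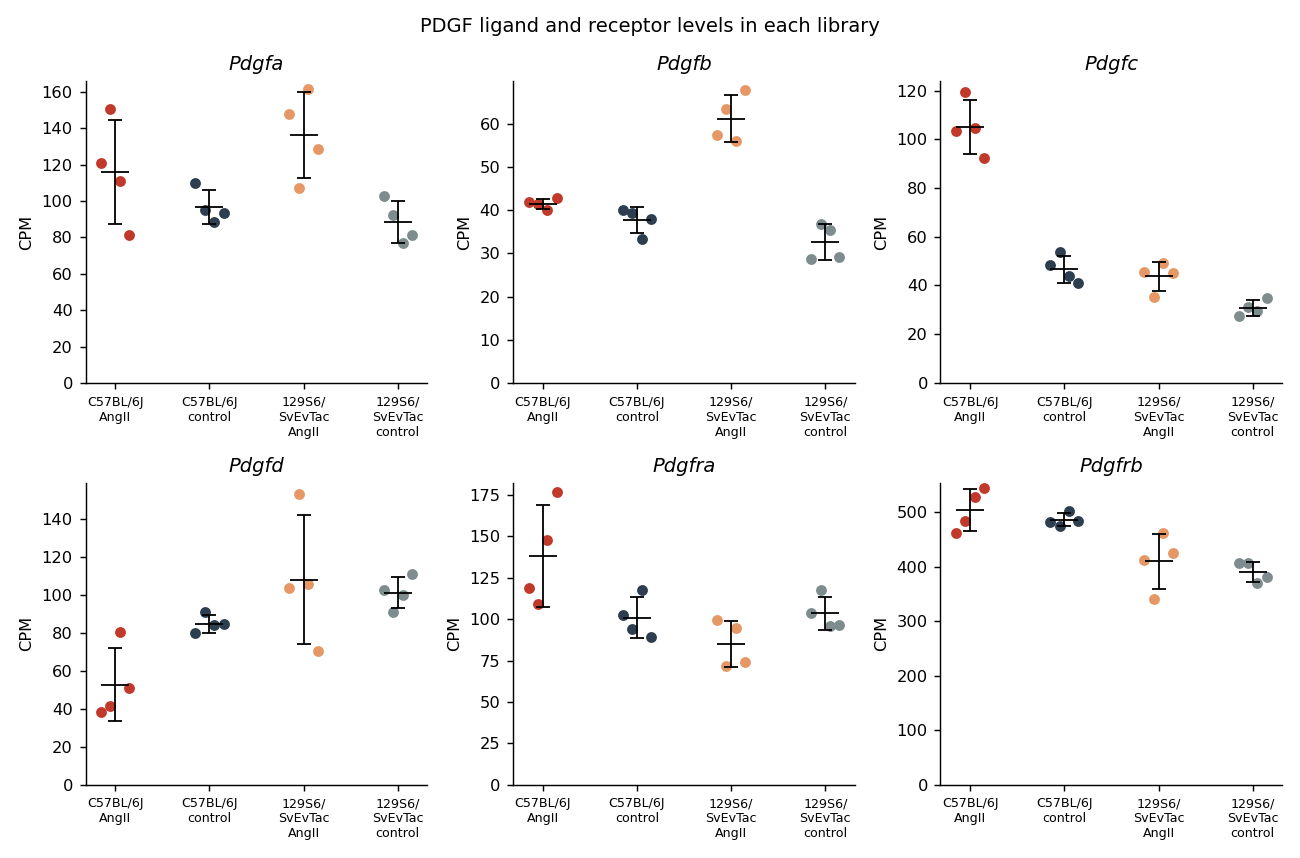
Level of each PDGF gene in CPM (vertical axes, from 0) in the 16 libraries of the 4 groups; points are libraries, and the bar with whiskers is the mean ± SD of 4 libraries. Pdgfc is highest in C57BL/6J AngII aortas (92.3 to 119 CPM), Pdgfb is highest in 129S6/SvEvTac AngII aortas (56.1 to 68.0 CPM), and Pdgfd is spread widely in both AngII groups.

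Pdgfc, whose product is a latent ligand of receptor alpha, had 103.6, 119, 104.6 and 92.3 CPM in C57BL/6J AngII aortas and 48.2, 53.6, 43.8 and 40.9 CPM in C57BL/6J controls. All 4 treated libraries were above all 4 controls, and the log2 fold change was 1.17 ± 0.12 (SE, n = 4 each; edgeR adjusted p = 4.47e-06). Its level in 129S6/SvEvTac was 45.7, 35.4, 49.1 and 45.1 CPM with AngII and 27.4, 31.3, 29.7 and 35.0 CPM in controls. The groups again did not overlap, by a narrow margin, and the log2 fold change was 0.51 ± 0.12 (edgeR adjusted p = 0.0111; not called with scaling by library size alone, at an adjusted p of 0.0618). Samples of the groups did not overlap for 1 of 6 members in C57BL/6J, against 35.2% of all genes, and for 3 of 6 in 129S6/SvEvTac, against 23.0%. The rise of Pdgfc in C57BL/6J was the larger, with a difference of 0.66 ± 0.16 on the log2 scale (edgeR adjusted p = 0.0215). With the smooth muscle marker score as a covariate the difference was 0.66 with an adjusted p of 0.214, and with the adipocyte score it was 0.64 with an adjusted p of 0.0539. In C57BL/6J aortas the rise itself was 1.16 with the smooth muscle score (adjusted p = 0.00371) and 1.13 with the adipocyte score (adjusted p = 0.000181).

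Pdgfc lies on mouse chromosome 3, positions 81036416 to 81214040 of GRCm38 on the plus strand, and Pdgfd on chromosome 9, positions 6168584 to 6378850, also on the plus strand. The 250 bases upstream of the RefSeq start (GRCm38.p6) of each are shown because these ligand genes, both latent forms, changed in opposite directions in C57BL/6J aortas. Each window ends before the GENCODE start of its gene. Capitals mark the motif matches.
Pdgfc, chr3:81036166-81036415, plus strand: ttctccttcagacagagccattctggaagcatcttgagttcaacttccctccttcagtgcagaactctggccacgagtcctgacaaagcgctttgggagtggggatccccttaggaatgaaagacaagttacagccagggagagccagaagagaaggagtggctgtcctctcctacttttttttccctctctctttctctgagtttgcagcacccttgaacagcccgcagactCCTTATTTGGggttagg
Pdgfd, chr9:6168236-6168485, plus strand: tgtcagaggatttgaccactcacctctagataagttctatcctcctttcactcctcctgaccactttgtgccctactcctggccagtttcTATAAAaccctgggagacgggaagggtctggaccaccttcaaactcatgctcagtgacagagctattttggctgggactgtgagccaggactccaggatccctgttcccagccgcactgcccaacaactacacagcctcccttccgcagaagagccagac
The windows were searched on both strands for a GC box (GGGCGG), an AP-1 site (TGANTCA), a CArG box, which is the serum response factor motif, and a TATA box (TATAAA). Pdgfc held a CArG box whose first base was at -17 from the start, a motif found in 1.47% of 32851 such windows, and Pdgfd held a TATA box at -160, found in 12.4%. Of the other members, Pdgfa and Pdgfra had windows in the same table. Pdgfa had 2 starts, with a GC box in 1 window and 2 GC boxes in the other (32.7% of windows hold the motif), and Pdgfra held none of the 4 motifs. No match in Pdgfc, Pdgfd, Pdgfa or Pdgfra was to the AP-1 site, found in 6.75% of windows. These are letter matches and no measure of binding.

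Pdgfd, a latent ligand of receptor beta, was present at 38.5, 41.5, 80.3 and 50.7 CPM in C57BL/6J AngII aortas, against 79.7, 90.8, 83.9 and 84.5 CPM in C57BL/6J controls. Treated libraries 1, 2 and 5 were below all controls, whereas replicate 3 lay within their range. Pdgfd fell by 0.68 on the log2 scale, with an SE of 0.22 (edgeR adjusted p = 0.0239). In 129S6/SvEvTac it stood at 103.4, 153, 105.5 and 70.2 CPM with AngII and at 102.6, 90.8, 100.1 and 111 CPM in controls, a log2 fold change of 0.094 ± 0.22 that was not called (edgeR adjusted p = 0.848; 95% interval -0.38 to 0.57). The treated libraries lay on both sides of the controls, with replicate 2 the highest and replicate 5 the lowest. The difference between the strains was -0.78 ± 0.31 and was not called (edgeR adjusted p = 0.132), except with limma voom (adjusted p = 0.0270) or without C57BL/6J AngII replicate 3 (-1.02, adjusted p = 0.0141).

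Pdgfd was set beside smooth muscle markers in each library. In C57BL/6J AngII aortas, replicate 3 had the highest sum of smooth muscle markers, 29632 CPM, and the highest Pdgfd, while replicate 1 had the lowest of both, with a sum of 12542 CPM. In 129S6/SvEvTac AngII aortas, replicate 5 had the lowest of both, with a sum of 36387 CPM, against 38165 CPM in the lowest 129S6/SvEvTac control. The orders did not match throughout. C57BL/6J AngII replicate 3 had Pdgfd within the range of its controls although its marker sum was below all of theirs. In 129S6/SvEvTac AngII aortas, replicate 4 had the highest marker sum, 45813 CPM, but less Pdgfd than replicate 2, whose sum was 43402 CPM. Of the 7 smooth muscle markers, 6 fell with AngII in C57BL/6J and 0 changed in 129S6/SvEvTac. With the smooth muscle score as a covariate the log2 fold change of Pdgfd in C57BL/6J was 0.26 (edgeR adjusted p = 0.596), and with the adipocyte score it was -0.22 (adjusted p = 0.505). The call was also lost without AngII replicate 1 (adjusted p = 0.0675) and without AngII replicate 2 (adjusted p = 0.0665) of C57BL/6J. In whole aorta, fewer cells of a type and less RNA per cell cannot be told apart.

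**Figure D2:**
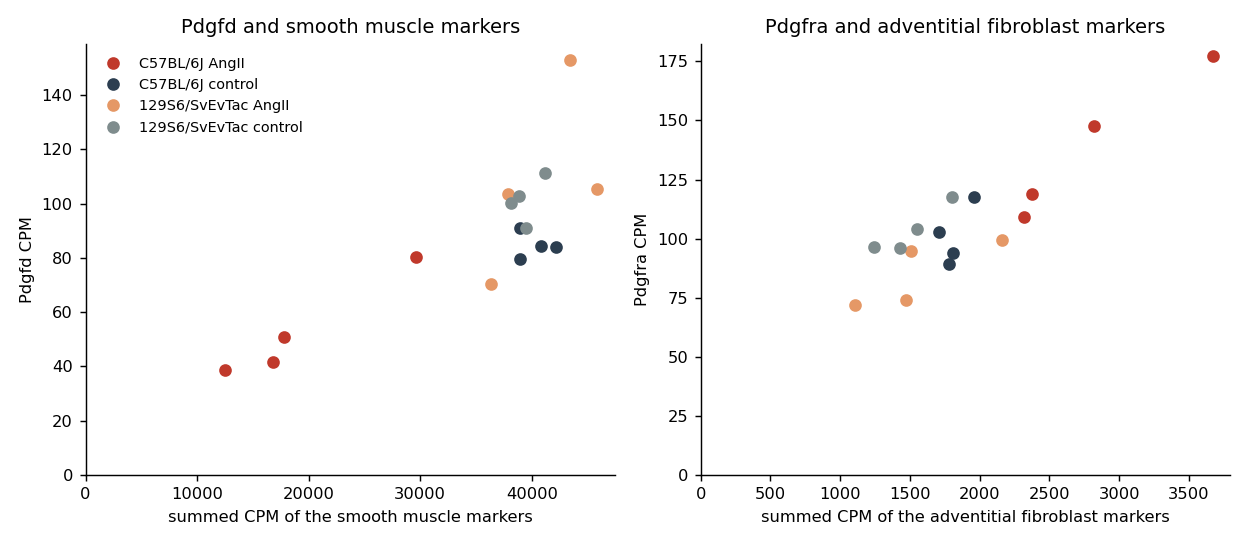
Pdgfd against the summed level of 7 smooth muscle markers (left) and Pdgfra against that of 8 adventitial fibroblast markers (right), all in CPM on axes from 0; each point is a library, coloured by group. C57BL/6J AngII libraries lie at the low end of the smooth muscle axis (12542 to 29632 CPM) and at the high end of the fibroblast axis (2317 to 3669 CPM).

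Pdgfb, the chain that binds both receptors and lies on chromosome 15, positions 79995874 to 80014977 on the minus strand, was the member with the most even values in C57BL/6J AngII aortas. It had 41.9, 41.4, 40.0 and 42.7 CPM there and 40.2, 39.4, 33.3 and 38.0 CPM in C57BL/6J controls, which overlap. The log2 fold change of 0.14 ± 0.094 was not called (edgeR adjusted p = 0.262; 95% interval -0.061 to 0.34). In 129S6/SvEvTac, Pdgfb reached 57.4, 63.5, 56.1 and 68.0 CPM with AngII, against 28.8, 36.7, 35.6 and 29.3 CPM in controls. Every treated library exceeded every control of that strain, and the log2 fold change was 0.91 ± 0.095 (edgeR adjusted p = 3.48e-05), a 1.88-fold rise. The effect in C57BL/6J minus that in 129S6/SvEvTac was -0.77 ± 0.13 (edgeR adjusted p = 0.00365), and it held without any 1 library (adjusted p between 0.00333 and 0.0125). With the smooth muscle score as a covariate it was -0.90 (adjusted p = 0.0550).

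Endothelial markers were compared beside Pdgfb because endothelium is a known source of the B chain. The sum of 7 endothelial markers was 871 to 1130 CPM in C57BL/6J AngII aortas and 1036 to 1303 CPM in C57BL/6J control aortas, and 797 to 2387 CPM in 129S6/SvEvTac AngII aortas and 719 to 1167 CPM in 129S6/SvEvTac controls. In 129S6/SvEvTac AngII aortas the sum was 797, 2387, 852 and 1247 CPM in replicates 1, 2, 4 and 5, and replicates 2 and 5, with the higher sums, also had the most Pdgfb. Between them, replicate 5 had more Pdgfb than replicate 2 at a lower sum. Replicates 1 and 4 had sums within the range of the 129S6/SvEvTac controls but Pdgfb above all of those controls. Of the endothelial markers 1 rose with AngII in C57BL/6J and 2 rose in 129S6/SvEvTac. The 5 platelet and megakaryocyte markers, from another known source of PDGF, summed to 7.16 to 10.9 CPM in 129S6/SvEvTac AngII aortas and 7.32 to 12.7 CPM in 129S6/SvEvTac controls, with 0 called. The part of these cells in the rise of Pdgfb was not tested.

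Pdgfa, a ligand of receptor alpha that is made by many cell types, maps to chromosome 5, positions 138976014 to 138997370 on the minus strand. It had 121, 151, 111 and 81.3 CPM in C57BL/6J AngII aortas and 109.7, 94.8, 88.3 and 93.2 CPM in C57BL/6J controls. AngII replicate 5 was below all of these controls, and the log2 fold change of 0.26 ± 0.17 was not called (edgeR adjusted p = 0.222; 95% interval -0.087 to 0.62). In 129S6/SvEvTac the values were 148, 107, 162 and 129 CPM with AngII and 103, 92.4, 77.1 and 81.2 CPM in controls. There the lowest treated library stood just above the highest control, and the log2 fold change was 0.63 ± 0.17 (edgeR adjusted p = 0.0225). The difference between the strains, -0.36 ± 0.23, was not called either (edgeR adjusted p = 0.366). The call in 129S6/SvEvTac was lost without AngII replicate 1 or 4 or without control replicate 2, 3 or 4, with adjusted p between 0.0529 and 0.0794, and with scaling by library size alone (adjusted p = 0.0667).

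The Pdgfa count is uncertain because 813 of its exon bases are shared with the antisense gene 6330403L08Rik, and the sources used here do not state whether counting used strand. The count of 6330403L08Rik was 22.5% to 76.9% of that of Pdgfa in the same library. It fell by 0.79 on the log2 scale in C57BL/6J AngII aortas, with an SE of 0.075 (edgeR adjusted p = 2.94e-06), and its log2 fold change in 129S6/SvEvTac was -0.12 ± 0.075 (edgeR adjusted p = 0.354). If strand was not used, reads of the pair cannot be told apart where their exons overlap. For the other 5 members, genes that share exon bases held at most 45 counts over the 16 libraries.

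**Figure D3:**
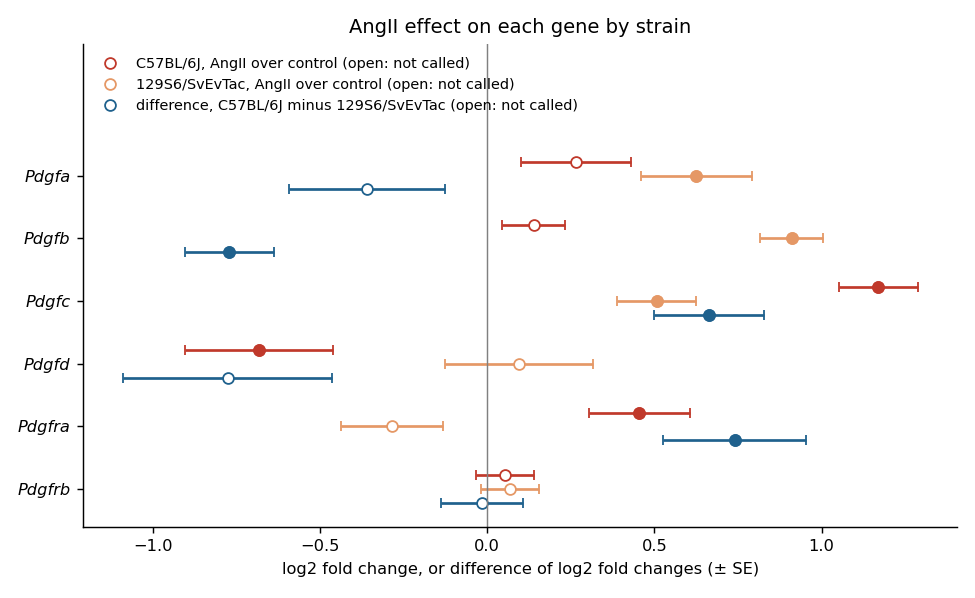
AngII effect on each PDGF gene as a log2 fold change over the strain's controls, and the difference of these effects (C57BL/6J minus 129S6/SvEvTac); points are estimates from 4 libraries a group, whiskers are ± SE, and filled points have an adjusted p below 0.05. Pdgfb lies to the right in 129S6/SvEvTac (0.91), Pdgfc lies farthest right in C57BL/6J (1.17), and Pdgfra lies on opposite sides of 0 in the strains (0.45 in C57BL/6J and -0.29 in 129S6/SvEvTac).

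Pdgfra encodes the receptor for the A, B and C chains and lies on chromosome 5, positions 75152292 to 75198215 on the plus strand. It had 119, 109.1, 148 and 177 CPM in C57BL/6J AngII aortas and 103, 94.1, 118 and 89.1 CPM in C57BL/6J controls. AngII replicates 3 and 5 were clearly above the controls, while replicate 2 lay below the highest control. Pdgfra rose by 0.45 ± 0.15 on the log2 scale (edgeR adjusted p = 0.0267). In 129S6/SvEvTac the receptor gene had 99.5, 71.7, 94.5 and 74.1 CPM with AngII and 104, 118, 96.0 and 96.4 CPM in controls. Treated replicates 2, 4 and 5 were below all controls there and replicate 1 was among them, and the log2 fold change of -0.29 ± 0.15 was not called (edgeR adjusted p = 0.259; 95% interval -0.61 to 0.037). The difference between the strains was 0.74 ± 0.21 (edgeR adjusted p = 0.0402).

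The 250 bases upstream of the RefSeq start of Pdgfra (GRCm38.p6) are given because this was the receptor gene whose AngII effect differed between strains. This window ends before the GENCODE start of Pdgfra. No capitals appear, as none of the 4 motifs matched.
Pdgfra, chr5:75152001-75152250, plus strand: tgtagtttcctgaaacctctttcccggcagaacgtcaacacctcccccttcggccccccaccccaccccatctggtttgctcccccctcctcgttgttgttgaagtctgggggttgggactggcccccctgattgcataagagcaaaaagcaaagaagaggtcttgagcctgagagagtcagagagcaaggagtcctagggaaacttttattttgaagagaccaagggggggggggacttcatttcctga

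Both Pdgfra calls were lost under several alternatives. The rise in C57BL/6J was lost without AngII replicate 3 (adjusted p = 0.0523) or 5 (0.30, adjusted p = 0.110) and without control replicate 1 (adjusted p = 0.0530), 2 (adjusted p = 0.0870) or 5 (adjusted p = 0.0930), with scaling by library size alone (adjusted p = 0.0776), in a fit of only the groups compared (adjusted p = 0.0689), and with the adipocyte (0.41, adjusted p = 0.155) or smooth muscle score (0.63, adjusted p = 0.156) as a covariate. The difference was lost in 10 of the 16 fits that left out 1 library, with values of 0.61 to 0.86 and adjusted p up to 0.0921 over all 16: without C57BL/6J AngII replicate 5, without C57BL/6J control replicate 1, 2 or 5, without 129S6/SvEvTac AngII replicate 2, 4 or 5, and without 129S6/SvEvTac control replicate 1, 2 or 3. It was also not called without the pair of libraries that stood apart (adjusted p = 0.0620) or with the adipocyte (0.71, adjusted p = 0.0961) or smooth muscle score (0.93, adjusted p = 0.172), where the difference itself was about as large or larger.

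The summed level of adventitial fibroblast markers was also higher with AngII in C57BL/6J aortas. The sum of 8 such markers was 2374, 2317, 2818 and 3669 CPM in C57BL/6J AngII aortas and 1711 to 1956 CPM in C57BL/6J controls. Replicate 5 had the highest sum and also the most Pdgfra. In 129S6/SvEvTac the sum was 1105 to 2157 CPM with AngII and 1244 to 1798 CPM in controls. Of the 8 markers 3 rose and 1 fell in C57BL/6J, and 1 rose in 129S6/SvEvTac. The part of fibroblast content in the Pdgfra values was not tested.

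Pdgfrb, the receptor for the B and D chains, lies on chromosome 18, positions 61045150 to 61085061 on the plus strand, and its AngII effects were near 0. It had 461, 483, 528 and 544 CPM in C57BL/6J AngII aortas and 482, 475, 502.5 and 484 CPM in C57BL/6J controls, a log2 fold change of 0.052 ± 0.087 (edgeR adjusted p = 0.668; 95% interval -0.13 to 0.24). In 129S6/SvEvTac aortas it had 412, 341, 461 and 424 CPM with AngII and 406, 407, 369.9 and 380.4 CPM in controls, a log2 fold change of 0.068 ± 0.087 (edgeR adjusted p = 0.691; 95% interval -0.12 to 0.25). Treated libraries lay on both sides of the controls in each strain. The difference between the strains was -0.015 ± 0.12 (edgeR adjusted p = 0.962). These intervals leave room for changes of up to 0.25 on the log2 scale. The sign depended on the scaling: with scaling by library size alone the log2 fold change was -0.038 in C57BL/6J and -0.092 in 129S6/SvEvTac. Pericyte markers, which mark another Pdgfrb-bearing cell type, summed to 1400 to 2703 CPM in C57BL/6J AngII aortas and 2538 to 3175 CPM in C57BL/6J controls, with 3 of 6 lower and 1 higher, Higd1b, which had 0.50 CPM with AngII and 0 in controls. In 129S6/SvEvTac they summed to 2976 to 3693 CPM with AngII and 2478 to 3038 CPM in controls, with 1 higher and 0 lower.

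Levels between genes were compared as CPM per kilobase of annotated exon. Those of Pdgfa carry the uncertainty of its count given above. Pdgfrb was the most abundant member in every library, with group means of 71.3 to 92.0 CPM per kilobase, and Pdgfra had group means of 8.47 to 13.8. Among ligand genes of C57BL/6J AngII aortas, Pdgfa was highest at 37.2 ± 9.17 CPM per kilobase, followed by Pdgfc at 20.6 ± 2.18, Pdgfd at 16.7 ± 6.06 and Pdgfb at 9.98 ± 0.27 (SD, n = 4). In that group the ranges of Pdgfc and Pdgfd overlapped. C57BL/6J controls had Pdgfa at 30.9 ± 2.96, Pdgfd at 26.9 ± 1.45, Pdgfc at 9.16 ± 1.08 and Pdgfb at 9.06 ± 0.74 CPM per kilobase, and Pdgfc and Pdgfb did not differ beyond their spread. In 129S6/SvEvTac AngII aortas the order was Pdgfa at 43.7 ± 7.62, Pdgfd at 34.3 ± 10.8, Pdgfb at 14.7 ± 1.32 and Pdgfc at 8.61 ± 1.16 CPM per kilobase, and the ranges of Pdgfa and Pdgfd overlapped. The 129S6/SvEvTac controls had Pdgfd at 32.1 ± 2.65, Pdgfa at 28.3 ± 3.73, Pdgfb at 7.83 ± 0.998 and Pdgfc at 6.06 ± 0.63 CPM per kilobase. There too the ranges of Pdgfd and Pdgfa overlapped.

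The ligand transcripts were made up differently in the 4 groups. Pdgfc made up 24.5% ± 1.38 of the summed ligand CPM per kilobase in C57BL/6J AngII aortas and 12.0% ± 0.99 in C57BL/6J controls, and 8.56% ± 1.41 in 129S6/SvEvTac AngII aortas and 8.17% ± 0.93 in 129S6/SvEvTac controls (SD, n = 4 each). Pdgfd made up 19.9% ± 6.65 in C57BL/6J AngII aortas and 35.4% ± 2.46 in C57BL/6J controls. The Pdgfd shares in 129S6/SvEvTac were 33.5% ± 8.98 with AngII and 43.2% ± 3.34 in controls, which overlap. For Pdgfb the share was 12.0% ± 1.93 in C57BL/6J AngII aortas and 11.9% ± 0.51 in C57BL/6J controls, and 14.7% ± 2.62 in 129S6/SvEvTac AngII aortas and 10.6% ± 1.70 in 129S6/SvEvTac controls. Pdgfa held 38.1% to 43.6% as a mean in every group. Every share rests in part on the Pdgfa count, which is uncertain because of the antisense gene described above. Shares and ratios are descriptions and were not tested.

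**Figure D4:**
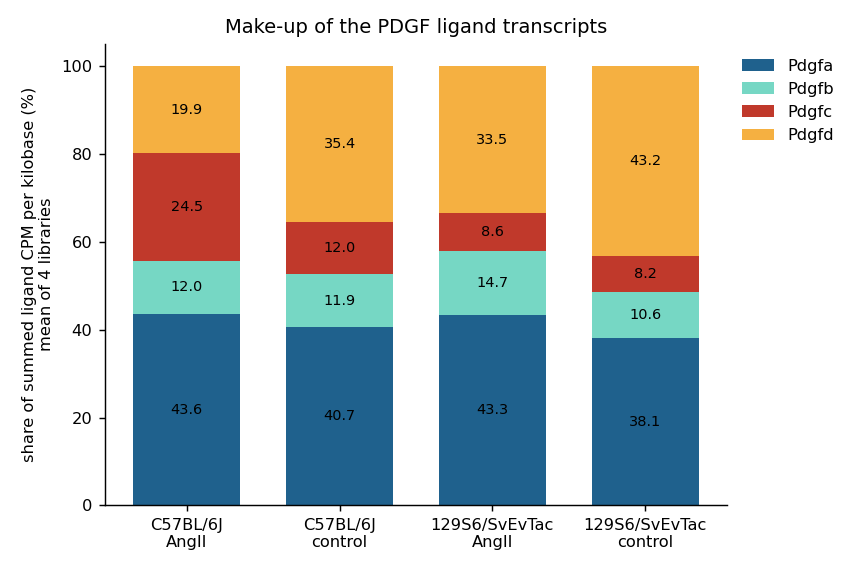
Share of each ligand gene in the summed CPM per kilobase of the 4 ligand genes (vertical axis, percent), as the mean of 4 libraries in each group. Pdgfc takes 24.5% in C57BL/6J AngII aortas and 12.0% in C57BL/6J controls, and Pdgfd takes 19.9% in C57BL/6J AngII aortas and 35.4% in C57BL/6J controls. Every share rests in part on the uncertain Pdgfa count.

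The ratio of Pdgfc to Pdgfd per kilobase, of latent ligands for different receptors, was 1.35 ± 0.46 in C57BL/6J AngII aortas (0.807 to 1.78) and 0.341 ± 0.035 in C57BL/6J controls. In 129S6/SvEvTac it was 0.276 ± 0.104 with AngII and 0.190 ± 0.020 in controls. The lowest C57BL/6J AngII library was above every other library. The ratio of Pdgfrb to Pdgfra was 6.84 ± 1.04 in C57BL/6J AngII aortas and 8.90 ± 0.90 in C57BL/6J controls, and 8.92 ± 1.19 in 129S6/SvEvTac AngII aortas and 6.94 ± 0.41 in 129S6/SvEvTac controls (SD, n = 4 each). The AngII mean was thus lower than the control mean in C57BL/6J and higher in 129S6/SvEvTac, where the treated ratios (7.59 to 10.5) lay above those of controls (6.34 to 7.22).

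Set side by side, the strains differed in more members with AngII than in controls, although this change in number was not tested. With AngII, 5 of 6 members were called between C57BL/6J and 129S6/SvEvTac, 3 higher and 2 lower in C57BL/6J, against 31.3% of all genes, 16.8% higher and 14.6% lower. Libraries did not overlap for 4 of 6 members, against 27.0% of all genes. Pdgfc was 2.39-fold higher in C57BL/6J AngII aortas, at a log2 fold change of 1.259 ± 0.12 (edgeR adjusted p = 1.91e-06). Pdgfd was 2.05-fold lower (edgeR adjusted p = 0.00252), and Pdgfb, whose libraries were all below those of 129S6/SvEvTac AngII, was 1.48-fold lower (edgeR adjusted p = 0.000375). Pdgfra was 1.63-fold higher (edgeR adjusted p = 0.00247) and Pdgfrb 1.23-fold higher (edgeR adjusted p = 0.0162). With the smooth muscle score as a covariate, the log2 fold change of Pdgfd was -0.042 (adjusted p = 0.953), against -1.03 without it. Those of the receptor genes were larger with the score and no longer called, at 0.88 for Pdgfra (adjusted p = 0.0588), against 0.70 without it, and 0.41 for Pdgfrb (adjusted p = 0.103), against 0.30 without it. The Pdgfrb call was also lost without 129S6/SvEvTac AngII replicate 2 (adjusted p = 0.0519) and in a fit of only the groups compared (adjusted p = 0.122).

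In control aortas 2 of 6 members were called, both higher in C57BL/6J, against 10.4% of all genes, 5.35% higher and 5.06% lower. Pdgfc was 1.51-fold higher in C57BL/6J controls than in 129S6/SvEvTac controls, a log2 fold change of 0.60 ± 0.12 (edgeR adjusted p = 0.00313), and Pdgfrb was 1.24-fold higher, a log2 fold change of 0.31 ± 0.087 (edgeR adjusted p = 0.0304). All C57BL/6J controls were above all 129S6/SvEvTac controls for Pdgfc and Pdgfrb, and all were below them for Pdgfd, whose log2 fold change of -0.26 ± 0.22 was not called (edgeR adjusted p = 0.567) except in a fit of only the groups compared (adjusted p = 0.0326). Groups did not overlap for these 3 of 6 members, against 22.3% of all genes. The Pdgfrb call did not hold without any 1 of the 8 control libraries or without 129S6/SvEvTac AngII replicate 1 or 5, with a log2 fold change of 0.29 to 0.33 and an adjusted p of up to 0.0991. It was also not called with scaling by library size alone (adjusted p = 0.0501), with no filter on low counts (adjusted p = 0.0634) or with the adipocyte score (adjusted p = 0.0512). Pdgfa, Pdgfb and Pdgfra were not called in controls, with log2 fold changes of 0.13, 0.21 and -0.037.

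The genes around the receptors were described by 5 lists of pathway genes, whose counts are to be read against all genes, of which 21.8% rose and 17.1% fell with AngII in C57BL/6J and 7.71% rose and 4.47% fell in 129S6/SvEvTac. Of 10 genes for processing enzymes, binding proteins and co-receptors, 7 rose and 0 fell with AngII in C57BL/6J, and 4 rose and 0 fell in 129S6/SvEvTac; their median log2 fold change was 0.83 in C57BL/6J and 0.45 in 129S6/SvEvTac. Plau, the urokinase-type plasminogen activator that releases active PDGF-D, rose to 37.8 ± 5.71 CPM in C57BL/6J AngII aortas, against 8.30 ± 0.83 CPM in controls, a 4.55-fold rise (edgeR adjusted p = 2.3e-06). In 129S6/SvEvTac Plau had 21.6 ± 0.47 CPM with AngII and 10.9 ± 3.67 CPM in controls, a 1.99-fold rise (edgeR adjusted p = 0.00436). The effect was 1.20 ± 0.28 larger in C57BL/6J on the log2 scale (edgeR adjusted p = 0.0153; with the smooth muscle score as a covariate it was 0.74, with an adjusted p of 0.402). Plat, the tissue-type activator that cleaves PDGF-C, rose 2.26-fold in C57BL/6J and 1.99-fold in 129S6/SvEvTac. Sparc, a matrix protein that binds the B chain, was far more abundant, at 10494 ± 1519 CPM in C57BL/6J AngII aortas and 3620 ± 492 CPM in C57BL/6J controls. It rose 2.90-fold there and 3.001-fold in 129S6/SvEvTac (edgeR adjusted p = 5.19e-06 in C57BL/6J and 2.43e-05 in 129S6/SvEvTac).

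Signalling adaptors and kinases carry the receptor signal into the cell. Of 25 such genes, 8 rose and 2 fell with AngII in C57BL/6J (median log2 fold change 0.012), near the 38.9% of all genes called there, and 4 rose and 1 fell in 129S6/SvEvTac (median 0.077), where 12.2% of all genes were called. Stat3, a transcription factor activated by many cytokine and growth factor receptors, rose 1.49-fold in C57BL/6J and 1.32-fold in 129S6/SvEvTac (edgeR adjusted p = 3e-05 in C57BL/6J and 0.00263 in 129S6/SvEvTac). Fyn, a Src-family kinase, rose 1.81-fold in C57BL/6J (edgeR adjusted p = 0.000679; log2 fold change 0.85, and 0.44 with an adjusted p of 0.320 with the smooth muscle score). The adaptor Shc1 rose 1.29-fold in 129S6/SvEvTac, and Rasa1, the Ras GTPase-activating protein that docks on receptor beta, rose 1.42-fold. Nck1, an adaptor that links receptors to the actin cytoskeleton, was at 34.4 ± 3.26 CPM in C57BL/6J AngII aortas and 22.1 ± 2.71 CPM in C57BL/6J control aortas, against 26.9 ± 2.74 CPM in 129S6/SvEvTac AngII aortas and 28.7 ± 3.17 CPM in 129S6/SvEvTac controls. Its AngII effect was 0.73 ± 0.16 larger in C57BL/6J (edgeR adjusted p = 0.0104; with the smooth muscle score the difference was 0.87, with an adjusted p of 0.0872). Ptpn11, the phosphatase SHP2 that relays receptor signals, had an effect lower by 0.54 in C57BL/6J than in 129S6/SvEvTac (log2 difference -0.54 ± 0.14, edgeR adjusted p = 0.0271), a call lost in 8 of the 16 fits that left out 1 library (without C57BL/6J AngII replicate 1 or 5, C57BL/6J control replicate 1 or 5, 129S6/SvEvTac AngII replicate 2 or 5, or 129S6/SvEvTac control replicate 1 or 2, with adjusted p up to 0.0683) and with the smooth muscle score (-0.25, adjusted p = 0.591).

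Other genes limit receptor signalling. Among 16 phosphatases, ubiquitin ligases and feedback inhibitors, 10 rose and 0 fell with AngII in C57BL/6J (median log2 fold change 0.50), and 1 rose in 129S6/SvEvTac (median 0.19). Socs3, an inhibitor induced by cytokine signalling, had 79.2 ± 11.4 CPM in C57BL/6J AngII aortas and 10.3 ± 1.25 CPM in C57BL/6J control aortas, and 11.1 ± 4.33 CPM in 129S6/SvEvTac AngII aortas and 8.21 ± 0.15 CPM in 129S6/SvEvTac controls. The 7.69-fold rise in C57BL/6J (edgeR adjusted p = 7.33e-07) exceeded the 129S6/SvEvTac effect by 2.50 ± 0.30 on the log2 scale (edgeR adjusted p = 0.00078). Ptpn1, a phosphatase that dephosphorylates PDGF receptors, rose 1.43-fold in C57BL/6J (edgeR adjusted p = 4.06e-05) and 1.21-fold in 129S6/SvEvTac (edgeR adjusted p = 0.0189), the second call not holding when AngII replicate 1, 4 or 5 or control replicate 1, 2 or 4 of 129S6/SvEvTac was left out (adjusted p up to 0.0898) and with scaling by library size alone (adjusted p = 0.357). Ptpn12 rose 1.52-fold in C57BL/6J (edgeR adjusted p = 6.11e-05). The effect on Spred1, an inhibitor of the Ras pathway, was 0.51 ± 0.14 larger in C57BL/6J (edgeR adjusted p = 0.0339), a call lost without C57BL/6J control replicate 2 or 5, 129S6/SvEvTac AngII replicate 4, or 129S6/SvEvTac control replicate 2, 3 or 4 (adjusted p up to 0.0862).

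Growth factor response genes include genes that are transcribed soon after receptors of this kind are stimulated. Of 18 genes listed, 11 rose and 1 fell in C57BL/6J (median log2 fold change 1.10), and 4 rose and 1 fell in 129S6/SvEvTac (median 0.23). Of the Egr, Fos, Jun and Ier genes listed, Egr2, Fosl1, Junb and Ier3 rose in C57BL/6J. Egr1, Fos, Fosb, Jun and Ier2 were not called there, with log2 fold changes of 0.066, -0.56, 1.16, -0.63 and -0.038. Whether PDGF receptors had been stimulated was not tested. Myc, a transcription factor of proliferating cells, had 21.2 ± 7.81 CPM in C57BL/6J AngII aortas and 2.48 ± 0.44 CPM in C57BL/6J controls, an 8.55-fold rise (edgeR adjusted p = 2.69e-06). In 129S6/SvEvTac Myc had 4.53 ± 1.10 CPM with AngII and 2.76 ± 0.76 CPM in controls, and the effect in C57BL/6J was larger by 2.37 ± 0.39 (edgeR adjusted p = 0.00289). Klf4, a factor that PDGF-B induces in cultured smooth muscle cells, rose 2.02-fold in C57BL/6J, with an effect larger by 0.88 ± 0.18 than in 129S6/SvEvTac (edgeR adjusted p = 0.00833). Srf, the factor that binds CArG boxes, had 92.2 ± 18.3 CPM in C57BL/6J AngII aortas and 158 ± 4.76 CPM in C57BL/6J controls, and was 1.71-fold lower (edgeR adjusted p = 4.47e-05; log2 fold change -0.77, and -0.32 with an adjusted p of 0.0967 with the smooth muscle score). In 129S6/SvEvTac, Plaur, the urokinase receptor, rose 2.33-fold, Ccnd1, a cyclin of early cell cycle, rose 2.21-fold, and Fosl1, a component of AP-1, rose 7.68-fold, though only to 1.84 ± 0.74 CPM, against 0.24 ± 0.011 CPM in controls. Proliferation markers rose in both strains, 6 of 6 in each, with sums of 108 to 406 CPM in C57BL/6J AngII aortas and 7.22 to 9.92 CPM in C57BL/6J control aortas, and 33.1 to 88.1 CPM in 129S6/SvEvTac AngII aortas and 4.64 to 8.07 CPM in 129S6/SvEvTac controls.

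The related VEGF family and class III receptor kinases, with their ligands, formed the last list. Of 15 genes, 9 rose and 2 fell with AngII in C57BL/6J (median log2 fold change 0.75), and 2 rose and 1 fell in 129S6/SvEvTac (median 0.23). Pgf, the placental growth factor, rose 4.75-fold in C57BL/6J and 4.93-fold in 129S6/SvEvTac (edgeR adjusted p = 0.000126 in C57BL/6J and 0.00063 in 129S6/SvEvTac). Its receptor gene Flt1 rose 1.68-fold in C57BL/6J (log2 fold change 0.75, and 0.20 with an adjusted p of 0.478 with the smooth muscle score) and 1.48-fold in 129S6/SvEvTac. Csf1r, a macrophage growth factor receptor of the same class as the PDGF receptors, had 188 ± 65.6 CPM in C57BL/6J AngII aortas and 64.9 ± 6.71 CPM in C57BL/6J control aortas, and 61.5 ± 11.5 CPM in 129S6/SvEvTac AngII aortas and 60.0 ± 13.7 CPM in 129S6/SvEvTac controls. Its effect was 1.498 ± 0.31 larger in C57BL/6J (edgeR adjusted p = 0.00969; with the smooth muscle score 0.52, with an adjusted p of 0.568). Macrophage markers summed to 950 to 1846 CPM in C57BL/6J AngII aortas and 317 to 429 CPM in C57BL/6J controls, with 7 of 7 higher, and to 199 to 418 CPM in 129S6/SvEvTac AngII aortas and 155 to 290 CPM in 129S6/SvEvTac controls, with 0 of 7 called, and their part in the Csf1r values was not tested. Kit, another receptor of the class, had an AngII effect 1.34 ± 0.34 larger in C57BL/6J (edgeR adjusted p = 0.0233; with the smooth muscle score 0.47, with an adjusted p of 0.669), and Kitl, its ligand, was 1.68-fold lower in 129S6/SvEvTac AngII aortas (edgeR adjusted p = 0.0104). Stat3, Rasa1, Fosl1, Junb, Ccnd1 and Csf1r share exon bases with counted genes on the opposite strand, and their values are uncertain for that reason. The count of the overlapping gene was 875% of the gene's own count for Fosl1 and 167% for Junb. For Stat3, Rasa1, Ccnd1 and Csf1r it was 13.5% to 38.6%.

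**Figure D5:**
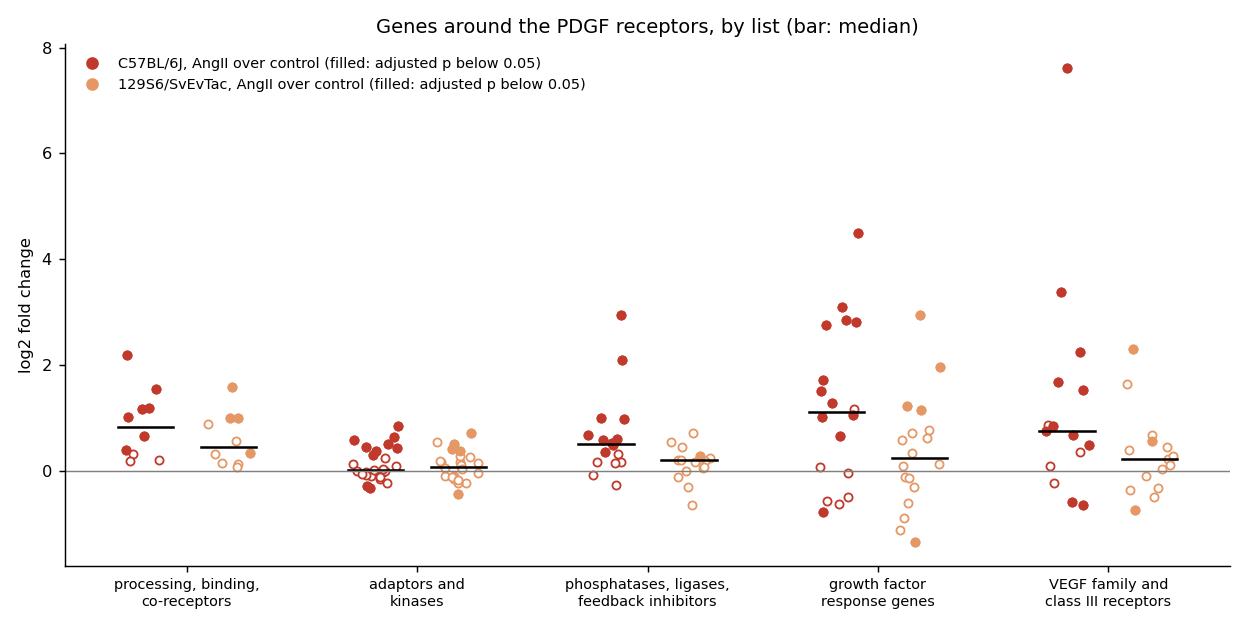
AngII effect (log2 fold change, vertical axis) on each tested gene of 5 pathway lists in C57BL/6J and 129S6/SvEvTac aortas; points are genes, filled where the adjusted p was below 0.05, and bars are medians. In C57BL/6J the median is highest for growth factor response genes (1.10) and near 0 for adaptors and kinases (0.012); the topmost point is Flt3, at 3.24 CPM in C57BL/6J AngII aortas and 0.013 CPM in C57BL/6J controls, so that its height rests on a control level of a few reads.

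For each member the 3 protein-coding genes with the most similar profile over the 16 libraries were found, as the smallest root mean square difference of centred log2 CPM among 10519 genes. Pdgfra was nearest to Cp, Dcn and Ces2g (0.149 to 0.178); Dcn, the matrix proteoglycan decorin, is also among the fibroblast markers. Pdgfd was nearest to Dmd, Tmtc2 and Itga8 (0.175 to 0.204), of which Dmd encodes dystrophin and Itga8 an integrin. Pdgfc was nearest to Cx3cl1, Reep4 and Rcn1 (0.200 to 0.230), and Pdgfb to Ehd2, Acot9 and Trp53inp2 (0.177 to 0.182). Pdgfa was nearest to Pofut2, Pmepa1 and Bysl (0.154 to 0.173). Pdgfrb, which varied least, was nearest to Tex264, Boc and Chmp4b (0.0939 to 0.106). When genes were centred within each group, 3 of 3 neighbours of Pdgfd and 2 of 3 of Pdgfa were among the 50 nearest, and 0 of 3 for Pdgfb, Pdgfc, Pdgfra and Pdgfrb, so that the likeness of the last 4 lay in the group means. Bysl, Cp, Itga8, Pofut2 and Tmtc2 share exon bases with genes on the opposite strand, up to 84.0% of the gene's own count for Bysl, and their values are uncertain for that reason.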

How the data were processed

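Counts per gene of whole descending thoracic aorta were taken from the table the authors deposited, 1 column for each of 16 libraries; these deposited values are expected counts, written as whole numbers. Per the labels' protocols, the authors used HISAT2 to align reads to GRCm38 (mm10) and StringTie, with a Gencode annotation, to estimate abundance; the submitters' processing notes name DESeq2 1.26.0 and R 3.6.2. Neither strandedness nor the Gencode release is given in the sources used. Names, positions and exon lengths came from GENCODE M21: 52489 of 52636 identifiers matched, and the 147 unmatched held 0.033% to 0.0431% of counts. Promoter sequences came from RefSeq (GRCm38.p6), for 4 of 6 members. Member windows on chromosome 18, where Pdgfrb lies, were left out.

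All 4 groups were fitted together, with 1 mean per group, by edgeR 4.0.16 in R 4.3.3: quasi-likelihood test, robust, TMM scaling and a filter on low counts (minimum count 10). P-values were adjusted (Benjamini-Hochberg) over all genes tested. Intervals are at 95%. The scripts were tested on simulated data. The most similar libraries of any group differed by more than sampling noise (chi-square per degree of freedom 37.58). Alternatives were other scalings, filters, DESeq2 1.42.0, limma 3.58.1, covariates and left-out libraries. The genes, lists and tests were chosen with earlier results of these data known. Named genes were all members, up to 3 called genes per list and AngII comparison, up to 2 for the difference, by smallest p, and 3 nearest genes per member. Further genes of the growth factor response list were named to show those not called beside those that rose.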

Additional observations from a re-analysis of the deposited data

Results flagged for a closer look

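The AngII effect differed between the strains, by the test of the difference itself, for 3 of the 6 PDGF genes. For Pdgfb the effect in C57BL/6J minus that in 129S6/SvEvTac was -0.77 on the log2 scale. For Pdgfc this difference was 0.66. For Pdgfra it was 0.74, with estimates on opposite sides of 0 in the strains, that in 129S6/SvEvTac not called. The Pdgfra difference was lost in 10 of the 16 fits that left out 1 library. With the smooth muscle score as a covariate, 0 members were called in the difference, and with the adipocyte score only Pdgfb was. The differences with the smooth muscle score were -0.90 for Pdgfb, 0.66 for Pdgfc and 0.93 for Pdgfra, about as large as without it or larger. That score is largely tied to the C57BL/6J AngII group, and the part of smooth muscle content in the differences was not tested. Of 24 sets of 4 libraries (6 genes in 4 groups), 0 held a library far from the others by Dixon's test.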

How the results depend on the processing

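Of 480 fold changes of members with 1 library left out, 434 kept their direction and their side of the threshold, 33 lost the call, 1 gained it and 12 changed sign; of 342 under other alternatives, 303, 25, 2 and 12 did so, and the causes were not tested. Counts of members called, with 1 library left out, were 2 to 4 in the difference of effects and 1 to 2 between control groups. All genes called in the difference then numbered 1039 (without 129S6/SvEvTac control replicate 2) to 2990 (without C57BL/6J AngII replicate 3). With the smooth muscle score as a covariate, 1 member and 2196 genes were called for AngII in C57BL/6J, 0 and 174 in the difference, and 2 and 1899 between strains with AngII; with the adipocyte score, 1 and 4379, 1 and 974 in the difference, and 1 member between controls. Scaling by library size alone moved the median of all genes to -0.16 in 129S6/SvEvTac, left 1 member called there and 1 between controls, and set the share of higher among called genes to 25.2% in place of 63.3% (45.4% in place of 56.1% in C57BL/6J, 65.2% in place of 53.6% in the difference; 73.6% with the smooth muscle score). With no filter, 1 member was called between controls. Genes called numbered 3324 (129S6/SvEvTac), 2670 (difference) and 3209 (controls) with limma voom, 2685 in the difference with DESeq2, 2772 between controls in a fit of those groups alone, and 1049 in the difference without the 2 libraries that stood apart.

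Changes of sign were as follows. Pdgfrb was -0.038 in C57BL/6J and -0.092 in 129S6/SvEvTac by library size, -0.0016 in C57BL/6J over protein-coding genes, and in the difference 0.053 by library size, 0.0021 with no filter, 0.10 with the smooth muscle score and 0.071 without the 2 libraries. Pdgfd with the smooth muscle score was 0.26 in C57BL/6J, -0.011 in 129S6/SvEvTac and 0.27 in the difference, and -0.074 in 129S6/SvEvTac by library size. Over left-out libraries the ranges were -0.14 to 0.23 for Pdgfd and -0.015 to 0.13 for Pdgfrb in 129S6/SvEvTac, -0.088 to 0.069 for Pdgfrb in the difference and -0.12 to 0.023 for Pdgfra between controls.

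The labels do not say whether replicate numbers pair the libraries. Same-numbered libraries of a strain correlated between -0.060 and 0.145 in their deviations from group means. Differently numbered libraries were not compared, so these values cannot settle it. With the replicate block, 1 member and 352 genes were called in 129S6/SvEvTac, 1 and 290 in the difference (Pdgfrb 0.035), and strain comparisons could not be fitted. The block removed the calls of Pdgfa and Pdgfc in 129S6/SvEvTac, of Pdgfra in C57BL/6J, and of Pdgfc and Pdgfra in the difference.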
